A study of Mus musculus with 8 samples.

Results

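The heterogeneous nuclear ribonucleoprotein (hnRNP) genes and the serine/arginine-rich (SR) splicing factor genes were examined in mouse bone marrow cells. The cells were sorted in a stem cell gate from Nup214 knockout and control mice. The members were every protein-coding row of the deposited gene table whose symbol starts with Hnrnp (20 genes) or with Srsf (11 genes), 31 of 52097 rows in all. Bulk RNA-seq was deposited for 3 knockout libraries, from Nup214fl/fl,Mx1-Cre mice, and 5 control libraries, from Nup214fl/fl mice without Cre. In both groups cells in the haematopoietic stem cell gate (CD48-CD150+LSK, where LSK means lineage-negative, Sca-1-positive and Kit-positive) were sorted from bone marrow 3 days after pIpC, a double-stranded RNA mimic that induces interferon. Both groups therefore shared the floxed alleles and the pIpC treatment, and Cre was carried by knockouts alone, so an effect of Cre cannot be told apart from loss of Nup214. Mx1-Cre responds to interferon in many cell types and is not limited to stem cells. The age and sex of the mice, and whether each library came from 1 animal or from a pool, are not stated in the sources used here. The p-values therefore measure only how far these libraries vary, which may be technical variation.

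SR proteins carry RNA-recognition motifs and a tail rich in arginine and serine, bind exonic enhancers and generally favour the use of an exon. The hnRNP proteins coat nascent transcripts and often oppose SR proteins at silencer elements, so the balance of the families helps to set alternative splicing. Several members, among them SRSF3, SRSF7 and hnRNP A1, shuttle between nucleus and cytoplasm. SRSF3 and SRSF7 act as adaptors that bring the export receptor NXF1 to mRNA, and NUP214 stands at the cytoplasmic face of the pore that exported mRNA leaves. In blood, SRSF2 is mutated in human myelodysplasia, and hnRNP LL (gene Hnrnpll) controls the splicing of the CD45 pre-mRNA in lymphocytes.

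The libraries of the knockout group differed from the controls in make-up before any single gene was considered. Nup214 measured 17.6, 9.66 and 18.2 FPKM in the knockout libraries (replicates 1 to 3, in order here and throughout), against 43.2, 65.2, 48.5, 34.2 and 55.3 FPKM in the control libraries (FPKM is a fragment count scaled to transcript length and library total). The groups did not overlap (exact two-sided permutation p = 0.0179, the smallest that 56 regroupings allow). Its log2 fold change was -1.66 as deposited and -0.85 after the median-ratio rescaling described below (limma adjusted p = 0.000289 and 0.0255). Mitochondrial genes took 37.8% to 43.3% of the summed FPKM of knockout libraries and 5.02% to 6.66% of that of controls, and a large share for a few genes lowers the FPKM of every other gene. Of 12 stem cell markers 9 fell and 1 rose. The background for each marker count here is 59.5% of all genes tested called lower and 8.91% higher as deposited. Past a filter of 5 FPKM, 74.6% were called lower and 6.11% higher. The summed level of the stem cell markers was 345 to 446 FPKM in knockouts and 1094 to 1424 FPKM in controls. Ly6a, which was not called as deposited, made up most of the knockout sum, at 390, 322 and 279 FPKM. Within the gate, Kit was at 12 ± 10.3 FPKM in knockouts and 137 ± 21.0 FPKM in controls (SD, n = 3 and 5), whereas Ly6a (Sca-1) was at 330.2 ± 55.9 and 329 ± 14.9 FPKM, Slamf1 (CD150) at 3.17 ± 1.71 and 4.45 ± 0.793 FPKM and Cd48 at 240 ± 37.0 and 232 ± 72.3 FPKM, in the same order. In the controls as well, Cd48 RNA was far above Slamf1 RNA, although the gate is CD48-CD150+. Surface protein is not in these data. After the median-ratio rescaling Ly6a and Cd48 were higher in knockouts, by 0.83 and 0.94 on the log2 scale (limma adjusted p = 0.0012 and 0.0161). Of 10 macrophage markers 9 rose, with sums of 1809 to 7205 FPKM in knockouts and 429 to 589 FPKM in controls. All 10 markers of T and NK cells rose, with sums of 1728 to 2342 FPKM in knockouts and 351 to 870.1 FPKM in controls. Among the 9 genes that mark stromal or endothelial cells, 8 rose and 1 fell, with sums of 333 to 785 FPKM in knockouts and 57.7 to 75.4 FPKM in controls, where Col1a1, Lepr, Cdh5 and Kdr were under 1 FPKM in every control library. The part that these shifts had in the values below was not tested. Estimated depth was 16100000 to 22600000 fragments in knockouts and 20000000 to 44200000 in controls.

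As deposited, nearly the whole repertoire was lower in the knockout. The 20 hnRNP genes summed to 1187, 1276 and 1336 FPKM in the knockout libraries, against 2793, 3270, 3192, 3588 and 3460 FPKM in the control libraries. The 11 SR genes summed to 487, 531 and 531 FPKM in knockouts, against 1463, 1596, 1483, 1213 and 1582 FPKM in controls. Neither sum overlapped between the groups, and the knockout means were 38.8% and 35.2% of the control means. Taken as a share of the summed FPKM without mitochondrial genes, the knockout means were 53.4% (hnRNP) and 48.2% (SR) of the control means. In bulk RNA, fewer cells of a type and less RNA per cell cannot be told apart.

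Gene by gene, 30 of the 31 members passed the filter of at least 1 FPKM in at least 3 libraries. Of these, 18 of 20 hnRNP genes and 10 of 10 SR genes fell, and 0 rose, with no fold change above 0 (limma on log2(FPKM + 1), adjusted p under 0.05 over 15121 genes). Of all genes tested, 59.5% were called lower and 8.91% higher. The members' median log2 fold change was -1.28, against -0.81 for all genes tested. In 27 of the 30 the 3 knockout values all lay below the 5 control values, which was so for 54.5% of all genes, while 7.89% of all genes did not overlap in the other direction and 0 members did. The members are well expressed, and in the 10131 genes that passed a filter of 5 FPKM the share called lower was 74.6% and the median fold change -1.01. The exceptions to the fall were Hnrnpll and Hnrnpul2, which did not pass, and Srsf12, which was too low to test.

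The size of the fall depended on how the libraries were scaled to each other. Median-ratio rescaling, which sets the typical expressed gene to the same level in every library, brought the median of all genes to -0.13. It left 19 of the 30 members lower and 0 higher (also 0 higher at an unadjusted p under 0.05). Of all genes, 21.4% were called lower and 16.5% higher. The rescaled share among genes past the 5 FPKM filter, which are closer to the members in level, was not computed. Quantile normalization left 12 members lower (20.4% of all genes), and rescaling to the total without mitochondrial genes left 26 (39.1%). Median-ratio factors taken from the tested genes alone, an alternative added after seeing the data, left 9 (17.1%). The same 9 genes were called lower under all 5 scalings. They were Hnrnpa1, Hnrnpc, Hnrnph1, Hnrnph3 and Hnrnpk among the hnRNP genes and Srsf2, Srsf5, Srsf7 and Srsf10 among the SR genes. The share of all genes called lower under all 5 scalings was not computed. It cannot exceed the 17.1% of the added scaling. After median-ratio rescaling the member medians were -0.46 for hnRNP genes and -0.51 for SR genes.

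**Figure D1:**
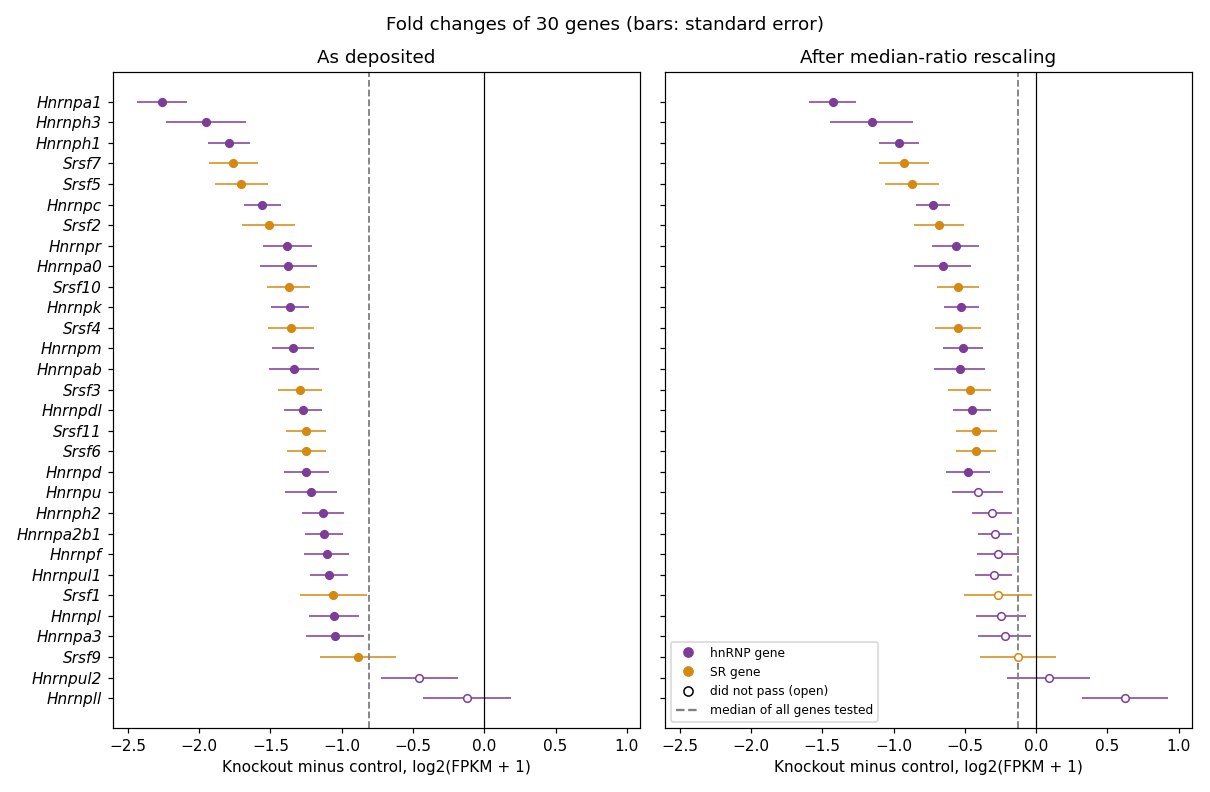
Log2 fold change (knockout minus control on log2(FPKM + 1), with its standard error) of the 30 tested genes as deposited (left) and after median-ratio rescaling (right), with filled points past the adjusted threshold and the dashed line at the median of all genes tested (-0.81 and -0.13). Hnrnpa1 lies furthest to the left in both panels, and Hnrnpll lies furthest to the right.

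Promoters are shown for 4 of these 9 genes, 2 of each family, to set out the sequences from which the consistently lower transcripts start. Each window of 300 bases spans the annotated start in RefSeq (GRCm38.p6), most of it upstream, and is written 5′ to 3′ on the gene's strand. Capitals mark the GC box GGGCGG, the CCAAT box CCAAT and the ETS motif CCGGAAG, on either strand. In Srsf5 a GC box and an ETS motif overlap.
Hnrnpa1, chr15:103240147-103240446, plus strand: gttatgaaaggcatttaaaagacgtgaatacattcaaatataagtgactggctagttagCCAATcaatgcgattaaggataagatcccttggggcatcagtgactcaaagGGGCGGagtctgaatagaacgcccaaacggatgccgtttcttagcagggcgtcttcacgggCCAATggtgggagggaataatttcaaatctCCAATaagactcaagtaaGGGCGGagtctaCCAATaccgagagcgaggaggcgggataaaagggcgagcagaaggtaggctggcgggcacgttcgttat
Hnrnpc, chr14:52103972-52104271, minus strand: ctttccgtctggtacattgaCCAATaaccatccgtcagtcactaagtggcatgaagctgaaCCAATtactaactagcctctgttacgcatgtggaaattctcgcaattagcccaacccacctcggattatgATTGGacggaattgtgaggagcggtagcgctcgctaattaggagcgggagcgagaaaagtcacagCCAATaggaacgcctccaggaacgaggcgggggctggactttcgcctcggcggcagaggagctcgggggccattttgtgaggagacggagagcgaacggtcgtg
Srsf5, chr12:80945249-80945548, plus strand: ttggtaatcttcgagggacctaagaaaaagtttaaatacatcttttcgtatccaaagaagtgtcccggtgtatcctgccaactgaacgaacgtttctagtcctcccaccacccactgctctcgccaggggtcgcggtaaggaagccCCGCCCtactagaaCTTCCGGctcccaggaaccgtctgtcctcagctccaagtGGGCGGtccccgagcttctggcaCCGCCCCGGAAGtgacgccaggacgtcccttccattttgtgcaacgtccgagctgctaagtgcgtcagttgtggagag
Srsf7, chr17:80207256-80207555, minus strand: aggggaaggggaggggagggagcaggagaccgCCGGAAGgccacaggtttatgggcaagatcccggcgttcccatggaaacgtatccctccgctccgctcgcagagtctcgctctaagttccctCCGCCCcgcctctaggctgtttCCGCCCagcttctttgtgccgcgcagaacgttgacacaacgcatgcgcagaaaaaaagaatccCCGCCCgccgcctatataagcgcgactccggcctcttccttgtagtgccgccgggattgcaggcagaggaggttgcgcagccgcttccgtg

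The windows differ in their make-up although the genes moved the same way. Those of Hnrnpa1 and Hnrnpc hold 4 CCAAT boxes each and no ETS motif, and that of Hnrnpa1 also holds 2 GC boxes. Those of Srsf5 and Srsf7 hold 3 GC boxes each and no CCAAT box. The Srsf5 window has 2 ETS motifs and the Srsf7 window has 1. These differences do not divide the families. Of the other genes called lower under all scalings, Srsf2, Srsf10, Hnrnph1 and Hnrnpk have a CCAAT box and Hnrnph3 has none. Promoters were found for 29 of the 31 members, all but Hnrnpll and Hnrnpul2, and 1 window per gene was used. A GC box was present in 23 of the 29 (79.3%), against 62.2% of the windows of tested genes and 35.9% of all windows. A CCAAT box was present in 16 (55.2%), against 38.9% and 37.9%, and an ETS motif in 6 (20.7%), against 18.6% and 9.12%. The median number of CpG dinucleotides per window was 31 in the members, 20 in tested genes and 7 in all. A match is a description of letters and not evidence of a bound factor.

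Within the A and B group of hnRNPs, which bind exonic and intronic silencers, Hnrnpa1 stood apart. Hnrnpa1 (chromosome 15, 103240432 to 103246692) was at 69.0, 68.1 and 109 FPKM in the knockout libraries, against 330.2, 405, 389, 419 and 404 FPKM in the control libraries. The lowest control value was 3.02 times the highest knockout value. The change of -2.26 ± 0.18 on the log2 scale (SE, limma adjusted p = 1.02e-05) was the largest among the 30, and 3.70% of all genes tested fell further. After median-ratio rescaling it was -1.43 (limma adjusted p = 0.000208). Hnrnpa2b1, the member with the highest FPKM in both groups, was at 264, 295 and 308 FPKM in knockouts, against 530, 626, 631, 693 and 687 FPKM in controls. It fell by 1.13 on the log2 scale as deposited (limma adjusted p = 7.3e-05), and its fold change of -0.29 after median-ratio rescaling did not pass (limma adjusted p = 0.0853). Hnrnpa3 averaged 41.3 ± 4.26 FPKM in knockouts and 88.2 ± 21.6 FPKM in controls, and Hnrnpa0, an intronless member, 4.07 ± 1.35 and 11.8 ± 0.804 FPKM (SD, n = 3 and 5). Hnrnpa0 remained lower after median-ratio rescaling (-0.66, limma adjusted p = 0.0287) and Hnrnpa3 did not (-0.22, limma adjusted p = 0.382). Hnrnpa1 and Hnrnpa3 have 17 and 33 annotated pseudogene copies, so reads can be split between gene and copy. The copies of Hnrnpa3 summed to 37.7% of the parent's FPKM in knockouts and 25.8% in controls, and those of Hnrnpa1 to 10.1% and 3.07%.

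The related genes Hnrnpab, Hnrnpd and Hnrnpdl fell by similar amounts. Hnrnpd, also called AUF1, binds AU-rich elements that govern mRNA decay. It was at 7.30, 8.43 and 6.85 FPKM in knockouts, against 15.2, 21.2, 20.4, 18.9 and 20.9 FPKM in controls. Its relative Hnrnpdl, which lies close by on chromosome 5, was at 36.2, 29.5 and 29.0 FPKM, against 68.7, 84.0, 79.0, 72.7 and 83.3 FPKM. The highest knockout value lay below the lowest control value in both genes. Hnrnpab averaged 13.7 ± 3.61 FPKM in knockouts and 35.4 ± 2.1 FPKM in controls (SD, n = 3 and 5). The 3 fold changes lay between -1.34 and -1.25 as deposited and between -0.54 and -0.45 after median-ratio rescaling, and all passed in both. Phykpl, on the opposite strand, shares 29.1% of the exonic bases of Hnrnpab, and without a stated strand setting its reads cannot be told apart there.

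The F and H group, which binds runs of G, was uneven. Hnrnph1 was at 55.4, 47.5 and 61.9 FPKM in the knockout libraries, against 169, 210, 202, 169 and 212 FPKM in the control libraries. This is a log2 difference of -1.79 ± 0.15 (SE, limma adjusted p = 1.17e-05). Hnrnph3 was at 22.6, 9.69 and 10.2 FPKM, against 60.3, 56.6, 59.3, 36.2 and 60.5 FPKM. Knockout replicate 1 was more than 2-fold above the other knockouts in this gene, and control replicate 4 was below the other controls. Its fold change of -1.95 ± 0.28 (SE) remained past the threshold after median-ratio rescaling (-1.15, limma adjusted p = 0.0117). The X-linked Hnrnph2 averaged 37.1 ± 4.86 FPKM in knockouts and 82.5 ± 10.9 FPKM in controls, and Hnrnpf 266 ± 24.3 and 579 ± 95.5 FPKM (SD, n = 3 and 5). Both fell as deposited, by 1.13 and 1.11 on the log2 scale. After median-ratio rescaling their fold changes of -0.31 and -0.27 did not pass (limma adjusted p = 0.112 and 0.179).

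Among the other abundant hnRNP genes, Hnrnpc and Hnrnpk fell with little spread. Hnrnpc, which encodes a protein that binds U tracts, was at 76.2, 79.9 and 88.2 FPKM in knockouts, against 212, 251, 223, 262 and 262 FPKM in controls. Hnrnpk, whose protein binds C-rich RNA through KH domains, was at 177, 203 and 200 FPKM, against 426, 501, 473, 538 and 560 FPKM. The groups were far apart in both, with log2 fold changes of -1.56 ± 0.13 and -1.36 ± 0.13 (SE). Hnrnpm averaged 63.9 ± 10.8 FPKM in knockouts and 163 ± 17.9 FPKM in controls, and Hnrnpr 26.1 ± 6.12 and 69.0 ± 8.17 FPKM (SD, n = 3 and 5). Both also remained lower after median-ratio rescaling, by 0.51 and 0.56 on the log2 scale. Hnrnpu, a nuclear scaffold protein gene, averaged 17.5 ± 4.77 and 41.2 ± 4.42 FPKM and Hnrnpul1 11.3 ± 1.38 and 25.1 ± 1.25 FPKM. Both passed as deposited but not after median-ratio rescaling (limma adjusted p = 0.0979 and 0.0955). Cox20, on the opposite strand, shares 6.93% of the exonic bases of Hnrnpu, and March2, on the same strand, 14.7% of those of Hnrnpm. Hnrnpul2 was at 0.78, 3.08 and 1.26 FPKM in knockouts, against 2.39, 2.35, 2.77, 2.62 and 2.32 FPKM in controls. Knockout replicate 2 lay above every control and the other knockouts below them, so the groups overlapped (log2 fold change -0.46, limma adjusted p = 0.157). Without knockout replicate 2 the fold change was -0.80 and passed (limma adjusted p = 0.00725).

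Hnrnpl and its relative Hnrnpll took different positions. Hnrnpl, whose protein binds CA repeats, was at 17.3, 21.9 and 26.3 FPKM in the knockout libraries, against 53.9, 47.0, 42.7, 36.9 and 51.0 FPKM in the control libraries. It fell by 1.06 on the log2 scale (limma adjusted p = 0.000492), with a fold change of -0.25 after median-ratio rescaling that did not pass. Hnrnpll was at 4.62, 10.4 and 7.90 FPKM, against 5.24, 7.44, 6.35, 12.9 and 9.97 FPKM. These ranges overlapped almost fully, and the fold change of -0.12 ± 0.31 (SE) did not pass (limma adjusted p = 0.747). Its sign was not stable, being 0.04 without control replicate 4, 0.16 without knockout replicate 1 and 0.62 after median-ratio rescaling (limma adjusted p = 0.917, 0.667 and 0.135). Of all genes tested, 78.2% had a lower fold change than Hnrnpll. The T and NK cell, macrophage and stromal marker sums given above were all higher in knockouts, although the lineage-negative gate is meant to leave out mature blood cells, and their part in the level of Hnrnpll was not tested.

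Among the SR genes the largest falls were in Srsf7, Srsf5 and Srsf2. Srsf7, an export adaptor, was at 95.0, 61.1 and 72.0 FPKM in the knockout libraries, against 237, 305, 242, 226 and 277 FPKM in the control libraries. The log2 difference was -1.76 ± 0.17 (SE, limma adjusted p = 2.57e-05). Srsf5, the SR gene with the highest FPKM, was at 94.0, 134 and 115 FPKM, against 425, 382, 381, 266 and 425 FPKM (-1.70 ± 0.19, SE). Control replicate 4 was the lowest control, at 1.99 times the highest knockout. Srsf2 was at 67.8, 103 and 91.4 FPKM, against 233, 268, 284, 189 and 279 FPKM, a log2 fold change of -1.51 ± 0.19 (SE). The groups did not overlap in any of these genes, and after median-ratio rescaling the fold changes were -0.93, -0.87 and -0.68 (limma adjusted p = 0.00261, 0.0052 and 0.014). Mettl23 and Mfsd11, on the opposite strand, share 15.6% and 9.74% of the exonic bases of Srsf2.

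Srsf3, the other export adaptor, was at 54.4, 52.3 and 72.5 FPKM in knockouts, against 128, 169, 138, 159 and 143 FPKM in controls. Srsf10, whose protein becomes a splicing repressor when dephosphorylated, was at 30.3, 39.0 and 35.0 FPKM, against 82.3, 110.3, 91.9, 77.3 and 97.8 FPKM. Srsf3, Srsf4, Srsf6, Srsf10 and Srsf11 formed a narrow group, with fold changes between -1.37 and -1.25 as deposited and between -0.55 and -0.42 after median-ratio rescaling, all past the threshold in both. Srsf11 had the least spread of the SR genes among the knockouts, though not among the controls, at 58.1, 59.1 and 58.0 FPKM in knockouts, against 156, 152, 145, 111 and 143 FPKM in controls. Srsf4 averaged 19.3 ± 4.19 FPKM in knockouts and 50.4 ± 5.24 FPKM in controls, and Srsf6 45.5 ± 2.48 and 110.1 ± 12.8 FPKM (SD, n = 3 and 5). Gm12992, a non-coding transcript on the opposite strand, shares 43.0% of the exonic bases of Srsf4.

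Srsf1 and Srsf9 had the smallest fold changes among the SR genes. Srsf1, the prototype SR protein gene, was at 16.4, 11.7 and 9.60 FPKM in knockouts, against 19.7, 32.7, 28.6, 20.9 and 34.9 FPKM in controls (log2 fold change -1.06 ± 0.24, SE, limma adjusted p = 0.00291). Srsf9 was at 4.51, 6.94 and 13.0 FPKM, against 12.8, 14.2, 15.2, 15.8 and 15.7 FPKM. Knockout replicate 3 fell within the control range of Srsf9, whose fold change was -0.89 (limma adjusted p = 0.0131) and -0.58 without knockout replicate 1. Neither gene passed after median-ratio rescaling (limma adjusted p = 0.41 and 0.735). Srsf12, a close relative of Srsf10, was listed at 0, 1.17 and 0 FPKM in knockouts, against 0.45, 0.11, 0.36, 0.13 and 0.29 FPKM in controls, and no fold change is given.

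**Figure D2:**
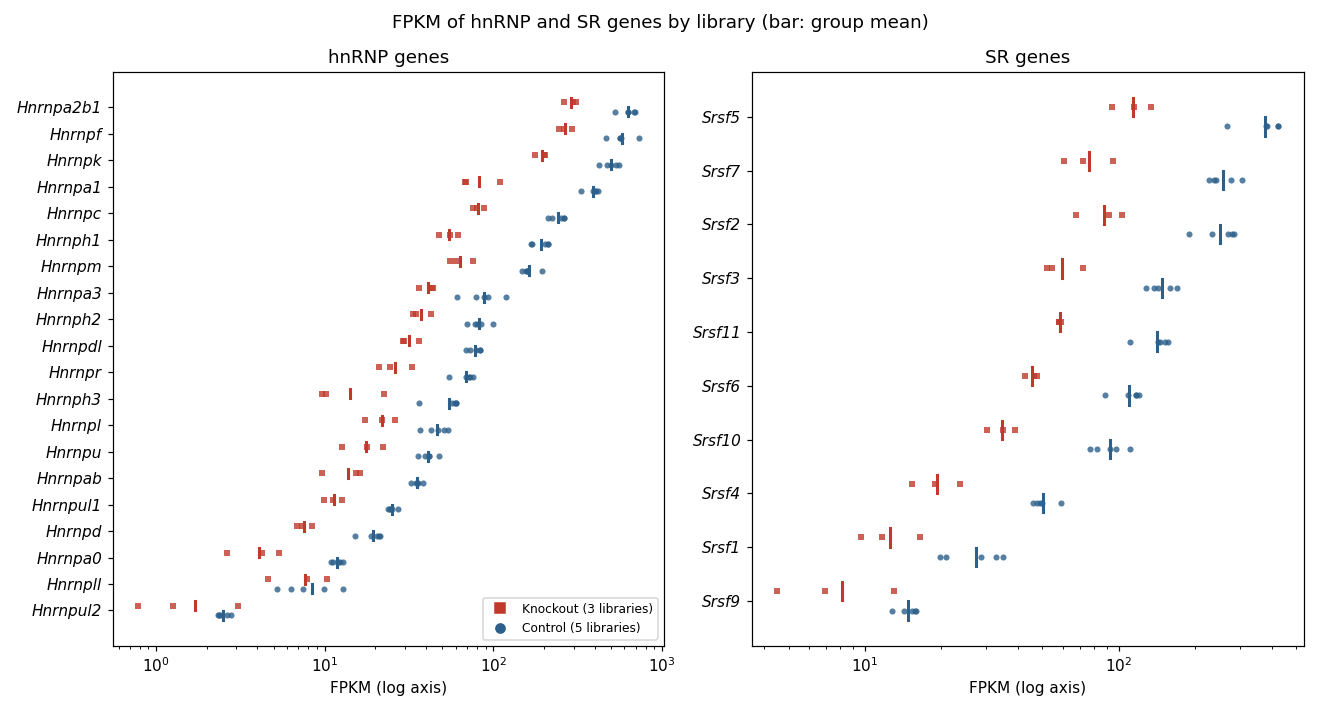
FPKM of the 20 hnRNP genes (left) and the 10 tested SR genes (right) on a log axis, with 1 point per library (knockout squares above control circles) and a bar at each group mean. In 27 of the 30 genes every knockout lies below every control, and the exceptions are Srsf9, Hnrnpll and Hnrnpul2.

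The make-up of the pool, which a scale factor per library leaves as it is, is given as a description with no test. The shares of 25 of the 31 members overlapped between the groups. Those of Hnrnpa1, Hnrnpc and Hnrnph1 were lower in every knockout, and those of Hnrnpa2b1, Hnrnpll and Hnrnpul1 were higher in every knockout. How often other genes would be apart on such a measure was not computed. Some members were apart by little, as Hnrnpc, at up to 4.72% in knockouts and from 4.78% in controls. Hnrnpa1 made up 4.12%, 3.77% and 5.86% of the summed FPKM of the 31 genes in knockout replicates 1 to 3, against 7.76%, 8.32%, 8.31%, 8.73% and 8.01% in control replicates 1 to 5. Hnrnpa2b1 made up 16.2% ± 0.386 in knockouts and 13.4% ± 0.763 in controls (SD, n = 3 and 5). Hnrnph1 made up 2.63% to 3.32% in knockouts and 3.51% to 4.33% in controls, and Hnrnpll 0.276% to 0.574% and 0.123% to 0.269%. The shares of the abundant Hnrnpf and Hnrnpk overlapped, with means of 15.0% ± 1.65 and 10.8% ± 0.339 in knockouts and 12.2% ± 1.73 and 10.6% ± 0.565 in controls. Hnrnpa2b1, Hnrnpf and Hnrnpk ranked first to the third by FPKM in both groups, and Hnrnpa1 ranked 6 in knockouts and 4 in controls. As a description across the 30 tested members, the fold change was more negative in genes with a higher control level (Pearson r = -0.61, members sharing the same 8 libraries). The control level is itself subtracted in the fold change, so part of a negative r can come from this shared term. The pseudocount of 1 also pulls the fold changes of low genes towards 0.

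**Figure D3:**
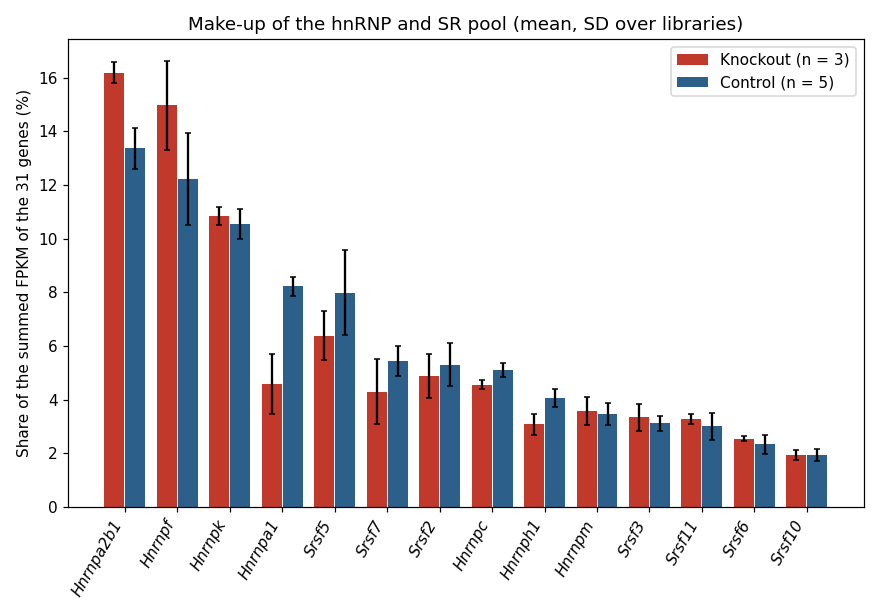
Share (%) of the summed FPKM of the 31 genes taken by the 14 members with the largest control share, as group means with SD over libraries (knockout bar left of control bar). Hnrnpa1 takes 4.58% in knockouts and 8.23% in controls, and Hnrnpa2b1 16.2% and 13.4%.

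Ratios of close relatives within each library were compared for 10 pairs. The exact permutation test was two-sided, ran over 56 regroupings and was adjusted over the pairs. The ratio is log2 of (FPKM + 1) of the first gene over (FPKM + 1) of the second. For Hnrnpa1 over Hnrnpa3 it was 0.91, 0.62 and 1.31 in knockout replicates 1 to 3, against 2.43, 2.34, 2.14, 1.80 and 2.1 in control replicates 1 to 5 (difference -1.21, exact permutation p = 0.0179, adjusted p = 0.0446). With the pseudogene copies of each gene added, a check chosen after seeing the data, the difference was -1.24. For Srsf5 over Srsf6 the ratio was 1.12, 1.47 and 1.30 in knockouts, against 1.82, 1.70, 1.81, 1.58 and 1.85 in controls (difference -0.46, exact permutation p = 0.0179, adjusted p = 0.0446). Neither pair overlapped between groups. The ratio of Hnrnpul1 to Hnrnpul2 and that of Srsf10 to Srsf12 did not overlap either (exact permutation p = 0.0179, adjusted p = 0.0446 each). Their differences of -0.63 and -1.41 lost the call with a pseudocount of 0.1, which gave -0.42 and -0.84 (exact permutation p = 0.25 and 0.482). Hnrnpul2 and Srsf12 lay below 1 FPKM in part of the libraries. The adjusted p of 0.0446 was reached only because 4 pairs shared the smallest p that 56 regroupings allow, these low-level pairs among them. The adjusted calls of Hnrnpa1 over Hnrnpa3 and of Srsf5 over Srsf6 therefore depend on these low-level pairs. Without knockout replicate 2 the Hnrnpul1 to Hnrnpul2 difference was -0.37.

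For the other 6 pairs the groups overlapped. Hnrnph1 over Hnrnph2 differed by -0.66, Hnrnpr over Syncrip (which encodes the related hnRNP Q) by -0.40 and Srsf3 over Srsf7 by 0.46, each with exact permutation p = 0.0357 and adjusted p = 0.051. Without knockout replicate 2 the Hnrnpr to Syncrip difference was -0.22, and without knockout replicate 3 the Srsf3 to Srsf7 difference was 0.29. Hnrnpl over Hnrnpll differed by -0.94 (exact permutation p = 0.107), with control replicate 4 inside the knockout range. Without that library, the one control that overlapped, the difference was -1.17, and over all libraries left out in turn it lay between -1.17 and -0.72. Hnrnpd over Hnrnpdl differed by 0.02 (exact permutation p = 0.946), with ratios of -2.16 to -1.69 in knockouts and -2.11 to -1.89 in controls. Srsf1 over Srsf9 differed by -0.17 (exact permutation p = 0.768), and ranged from -0.40 to 1.66 over the knockout libraries.

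**Figure D4:**
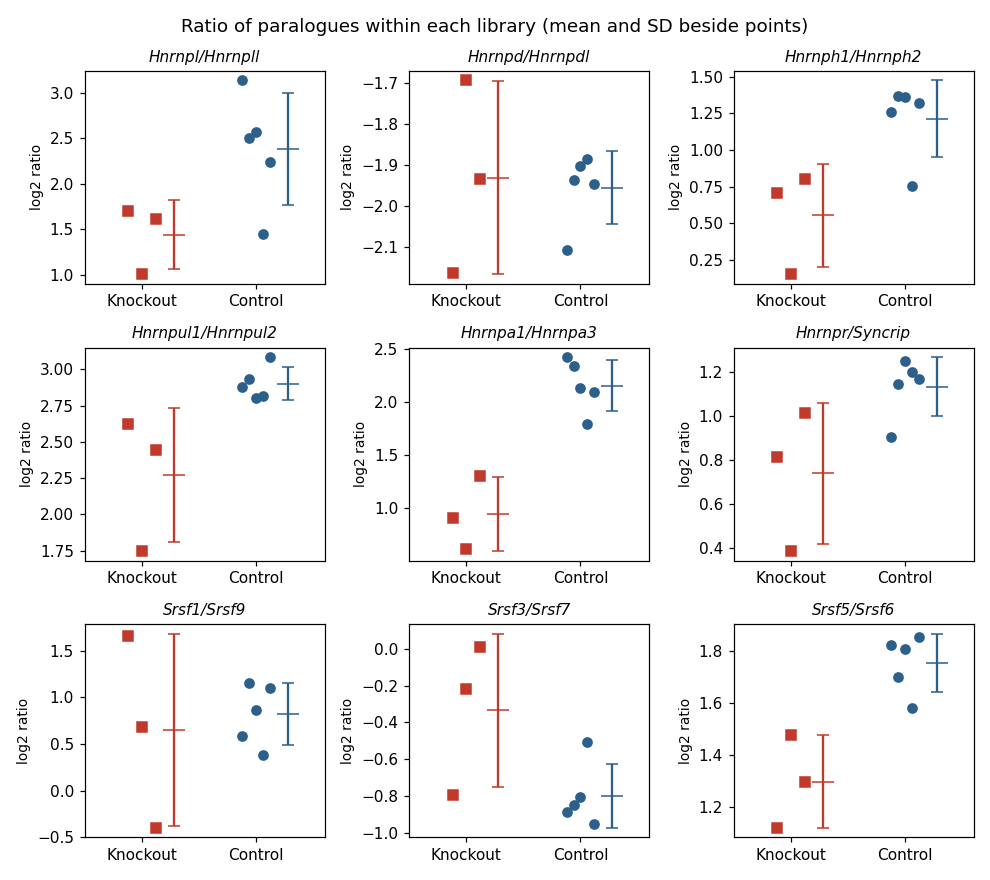
Log2 ratio of (FPKM + 1) of 9 pairs of related genes in each library (knockout squares left of control circles), with the group mean and SD beside the points and a separate scale in each panel. The groups are apart for Hnrnpa1/Hnrnpa3, Srsf5/Srsf6 and Hnrnpul1/Hnrnpul2.

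Genes that act with the members were read from the same fit, in lists chosen with earlier results of these data known. Their counts stand against 59.5% of all genes called lower as deposited, 74.6% of genes past the 5 FPKM filter, and 21.4% of all genes after median-ratio rescaling. The last share includes low genes, and its counterpart past the 5 FPKM filter was not computed. Of 17 RNA-binding proteins related to hnRNPs 17 fell (59.5% of all genes), with a median of -1.45, among them Pcbp2, a KH-domain protein that binds C-rich RNA, at 36.1 ± 6.10 FPKM in knockouts and 137 ± 6.15 FPKM in controls (SD, n = 3 and 5). Cirbp, a cold-inducible RNA-binding protein gene, averaged 25.4 ± 1.5 and 101 ± 17.8 FPKM, and Ewsr1, of the FET family, 103 ± 8.86 and 293 ± 18.4 FPKM. After median-ratio rescaling 9 of the 17 were lower (52.9%, against 21.4% of all genes) and 1 higher. The higher one was Ptbp3, a polypyrimidine tract binding protein gene, named after its values were seen. It averaged 35.3 ± 3.57 FPKM in knockouts and 46.6 ± 5.18 FPKM in controls, fell by 0.39 on the log2 scale as deposited (limma adjusted p = 0.0286) and was 0.43 higher after rescaling (limma adjusted p = 0.026).

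Of 17 SR-related proteins 17 fell (median -1.41, against -0.81 for all genes), and 12 were lower after median-ratio rescaling (70.6%, against 21.4% of all genes). Tra2b, which binds purine-rich enhancers, averaged 56.2 ± 4.05 FPKM in knockouts and 150 ± 16.8 FPKM in controls, Rnps1, of the exon junction complex periphery, 53.0 ± 3.96 and 136 ± 11 FPKM, and Luc7l 14.3 ± 1.32 and 46.7 ± 6.34 FPKM (SD, n = 3 and 5). Of 11 SR kinases and transportins 11 fell (median -1.17), and 2 were lower after rescaling, a share of 18.2% that does not exceed the 21.4% of all genes. Tnpo3, which imports phosphorylated SR proteins into the nucleus, averaged 15.2 ± 3.55 and 39.9 ± 2.30 FPKM, the kinase gene Srpk1 22.2 ± 1.29 and 49.4 ± 6.59 FPKM and the kinase gene Clk4 32.6 ± 3.87 and 74.9 ± 11 FPKM. Of these, Tnpo3 remained lower after rescaling (-0.56, limma adjusted p = 0.0181), whereas Srpk1 and Clk4 did not pass (limma adjusted p = 0.129 and 0.106).

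Of 15 other splicing regulators tested 15 fell (median -1.27, with 59.5% of all genes lower), and 5 were lower after median-ratio rescaling (33.3%, against 21.4% of all genes). Tia1, which binds U-rich RNA next to splice sites, averaged 17.9 ± 2.91 FPKM in knockouts and 114 ± 23.4 FPKM in controls and U2af1, of the 3′ splice site factor, 51.1 ± 4.24 and 143 ± 13.3 FPKM (SD, n = 3 and 5). Mbnl2, a muscleblind family gene, fell by 1.46 on the log2 scale. The core spliceosome list was made by symbol alone (starting with Snrp, Lsm, Sf3a or Sf3b), so not every gene in it need be a core spliceosome gene. Of 32 tested, 31 fell (96.9%, against 59.5% of all genes, median -1.29) and 16 were lower after rescaling (50%, against 21.4%). Lsm14b did not pass as deposited (limma adjusted p = 0.0745). Lsm3 averaged 38.1 ± 14.2 and 256 ± 46.5 FPKM, Snrpd2 26.2 ± 2.61 and 84.3 ± 13.4 FPKM and Snrpa 50.8 ± 4.40 and 139 ± 16.6 FPKM. The hnRNP and SR genes had a median of -1.28, and no difference between these lists was tested.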

How the data were processed

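Per the labels' protocols, RNA of sorted marrow cells was extracted with miRNeasy, amplified by Geo-seq and made into libraries with a TruePrep kit. The deposited table gave FPKM per gene and library, with no counts. Bowtie 0.12.9, Cufflinks 2.1.1, HTSeq, DESeq2 and mm10 are named in the submitters' processing notes, without their roles, and neither strand setting nor annotation release is given in the sources used here. All 52097 identifiers matched GENCODE M21 (GRCm38). Depth was estimated from the step of low values in single-transcript genes of 600 to 2500 nt (82.2% to 92.1% within 0.15 fragments of a whole number, 30% by chance).

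The test was limma 3.58.1 (R 4.3.3, trend and robust options) on log2(FPKM + 1) for 15121 genes with at least 1 FPKM in at least 3 libraries. Benjamini-Hochberg adjustment ran over all of them, with a threshold of 0.05. Fold changes are knockout minus control on that scale, which understates changes of low genes. The procedure was tested on simulated data of 15121 genes with 200 changed (5 draws). Sensitivity was 41% for genes changed 2-fold and 82.4% for those changed 4-fold, with 3.9% false calls. A gene that did not pass may therefore still differ, above all where the change is under 2-fold. The real data gave 8997 lower and 1348 higher calls, far more than the genes changed in the simulation, so these rates may not carry over. Pseudogene copies were found with BLAST+ 2.17.0 (at least 90% identity over at least 50% of the pseudogene). The members, lists and pairs were chosen with earlier results of these data known. Every member is named, with the 3 smallest p in each related list and the genes of each pair, besides Nup214 and the sorting-gate genes. Alternatives covered scaling, pseudocount, filter, moderation, each library left out and a replicate block. The B cell marker list is not reported here.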

Additional observations from a re-analysis of the deposited data

Results flagged for a closer look

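Values far from the rest of their group were sought in the 5 controls, for the 31 genes and the 10 ratios. Dixon's test was used on log values at the 95% level, which chance passes in about 1 of 20 groups. Control replicate 4 gave 5 of the 6 found. It was the lowest control for Srsf5 (266.43 FPKM), Srsf11 (111.04 FPKM) and Hnrnph3 (36.15 FPKM), the highest for Hnrnpm (194.01 FPKM), and the lowest for the log2 ratio of Hnrnph1 to Hnrnph2 (0.75). Control replicate 1 was the lowest for the log2 ratio of Hnrnpd to Hnrnpdl (-2.11). No technical or biological source of these values was tested.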

How the results depend on the processing

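The 0 members higher in the knockout stayed at 0 under every alternative run, although 1, Hnrnpll, was higher at an unadjusted p under 0.05 with median-ratio factors from the tested genes. The 18 hnRNP genes called lower became 11 with median-ratio rescaling, 8 with quantile normalization and 5 with those factors (an alternative added after seeing the data), and 18 to 19 without any 1 library. The 10 SR genes called lower became 4 with quantile normalization and 4 with the added factors, and stayed at 10 without any 1 library. Over all genes the 1348 higher calls became 2491, 2530 and 2827 under median-ratio, quantile and added scaling, 3561 with no filter, 619 with a filter of 5 FPKM and 847 to 1351 without 1 library. The 8997 lower calls became 3233, 3079 and 2583 under those scalings and 5900 with the non-mitochondrial total.

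Single genes changed sign in 2 cases. Hnrnpll (-0.12) was at 0.62, 0.65, 0.73 and 0.29 under median-ratio, quantile, added and non-mitochondrial scaling, 0.19 with the replicate block and -0.35 to 0.16 without 1 library. Hnrnpul2 (-0.46) was at 0.09 and 0.17 under median-ratio and added scaling. With a pseudocount of 0.1 the ratio differences were -0.05 for Hnrnpd/Hnrnpdl, -0.42 for Hnrnpul1/Hnrnpul2 and -0.84 for Srsf10/Srsf12. Without 1 library they ranged from -0.09 to 0.14 for Hnrnpd/Hnrnpdl, -0.78 to -0.46 for Hnrnph1/Hnrnph2, -1.17 to -0.72 for Hnrnpl/Hnrnpll, -0.53 to -0.22 for Hnrnpr/Syncrip, -0.68 to 0.35 for Srsf1/Srsf9 and 0.29 to 0.69 for Srsf3/Srsf7.

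Same-numbered libraries of the groups did not deviate together (correlations -0.04, 0.03 and -0.04 over genes), so the numbers were not taken as pairs. With a replicate block 18 hnRNP and 10 SR genes were lower, of 7607 lower and 1232 higher genes in all. The shallowest library resolves 0.0621 FPKM per fragment for a transcript of 1 kb, which limits Srsf12 most.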

Other observations

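Control replicate 4 was the lowest control for 6 of the 10 tested SR genes and the highest for 2, and the lowest for 5 of the 20 hnRNP genes and the highest for 9. Its median log2 ratio to the control mean was -0.28 over SR genes and 0.09 over hnRNP genes. In control replicates 1 and 5 both families lay on the same side, at -0.11 and 0.09 over SR genes and -0.19 and 0.11 over hnRNP genes. No test was run on these medians. Control replicate 1 was the lowest control for 12 of the 20 hnRNP genes. Among the knockouts, replicate 1 was the lowest for 11 of 20 hnRNP genes and 5 of 10 SR genes. The knockout medians against the control mean lay between -1.28 and -1.09 for hnRNP genes and between -1.42 and -1.26 for SR genes, all outside the range of the control medians (-0.19 to 0.11 and -0.28 to 0.10).

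Pseudogene copies did not all move with their parents. The 4 copies of Srsf3 summed to a mean of 7.23 FPKM in knockouts and 7.01 FPKM in controls, while Srsf3 itself averaged 59.7 and 147 FPKM. The sums of these copies spread widely, from 3.75 to 9.72 FPKM over knockouts and 1.91 to 13.9 FPKM over controls, so their direction is unclear. The single copy of Hnrnph2 averaged 2.06 and 0.18 FPKM, and the 2 copies of Hnrnpk summed to 9.34 and 21.6 FPKM.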
